A study of Mus musculus and Rattus norvegicus with 28 samples.

Results

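Hemoglobin genes and genes of red blood cell formation were followed in mouse left ventricular cardiomyocyte preparations around birth and in cultured rat ventricular cells. The set holds 7 genes, namely Hba-a1, Hba-a2, Hbb-bs, Hbb-bt, Alas2, Slc4a1 and Ahsp. They were selected by gene symbol, and the choice was made on their large fall between embryonic day 18.5 (E18.5) and postnatal day 7 (P7) in these same libraries, so that this fall is given below as a description with no test. Of the 7 genes, 6 were found among the 55450 genes of the mouse files and 6 among the 32623 genes of the rat files. Ahsp was not analysed here in mouse, and Hbb-bt was not analysed here in rat.

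The mouse samples came from wild-type C57BL/6 animals of both sexes at E18.5, P1, P3 and P7, with 2 RNA-seq and 2 ATAC-seq libraries per time point. Ventricle pieces were digested with trypsin and collagenase, and the suspension was pre-plated so that cells other than cardiomyocytes would attach and stay behind. The mouse cells were used directly from the supernatant, and the methods name no step that removes red blood cells. The rat samples were neonatal ventricular cells from P1 Sprague Dawley rats, plated and given DMSO, the solvent, or 100 nM trichostatin A (TSA), a histone deacetylase inhibitor, with 3 RNA-seq libraries per treatment. The replicates were described as biological, but the labels do not tie libraries to animals, so that the p-values measure the spread between libraries only.

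Adult hemoglobin is a tetramer of a pair of alpha and a pair of beta chains, each holding a heme group. In the mouse the alpha chains are made from Hba-a1 and Hba-a2 in one gene cluster, and the beta chains from Hbb-bs and Hbb-bt in another. Alas2 encodes the erythroid form of 5-aminolevulinate synthase, which starts heme synthesis. Slc4a1 encodes band 3, the anion exchanger of the red cell membrane, and Ahsp encodes a chaperone of free alpha chains. Before birth red cells are made mainly in the fetal liver, and young red cells in the blood still carry globin mRNA after they have lost their nucleus.

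The promoters of the globin genes are shown because both copies of each pair stood far higher in the E18.5 libraries than in every later one, and because peaks of open chromatin were looked for at these starts. In GRCm38.p6, on the coordinates of the peak files, the main Hba-a1 transcript lies at chr11:32283511-32284465 and that of Hba-a2 at chr11:32296489-32297298, both on the plus strand. The main Hbb-bs transcript lies at chr7:103826534-103827928 and the Hbb-bt transcript at chr7:103812524-103813996, both on the minus strand. Alas2 lies at chrX:150547375-150570638 on the plus strand and the main Slc4a1 transcript at chr11:102348824-102365280 on the minus strand. The 250 bases before the RefSeq start are given 5′ to 3′ along the gene. That start differs from the GENCODE start of the transcript files for all but Hbb-bs. Capitals mark every match, on either strand, to 4 short motifs: GATAAG, the word bound by GATA factors, the CACCC box, the CCAAT box and the TATA-box word ATATAA.
Hba-a2, chr11:32296242-32296491: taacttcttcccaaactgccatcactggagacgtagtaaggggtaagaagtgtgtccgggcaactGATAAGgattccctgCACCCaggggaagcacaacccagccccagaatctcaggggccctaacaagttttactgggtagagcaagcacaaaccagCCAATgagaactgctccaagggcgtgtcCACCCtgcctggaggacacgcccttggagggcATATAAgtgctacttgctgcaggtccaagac
Hbb-bs, chr7:103827929-103828178: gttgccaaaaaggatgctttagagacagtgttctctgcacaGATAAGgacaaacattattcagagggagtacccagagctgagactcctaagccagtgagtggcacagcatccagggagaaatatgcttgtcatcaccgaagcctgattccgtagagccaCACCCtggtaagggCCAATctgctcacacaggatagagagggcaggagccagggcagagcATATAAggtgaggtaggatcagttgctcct
Hbb-bt, chr7:103813924-103814173: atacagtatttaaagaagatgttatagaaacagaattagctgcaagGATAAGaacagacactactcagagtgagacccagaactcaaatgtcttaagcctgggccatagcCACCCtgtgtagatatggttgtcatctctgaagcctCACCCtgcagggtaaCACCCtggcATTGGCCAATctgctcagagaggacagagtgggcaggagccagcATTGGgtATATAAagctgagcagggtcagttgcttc
Alas2, chrX:150547167-150547416: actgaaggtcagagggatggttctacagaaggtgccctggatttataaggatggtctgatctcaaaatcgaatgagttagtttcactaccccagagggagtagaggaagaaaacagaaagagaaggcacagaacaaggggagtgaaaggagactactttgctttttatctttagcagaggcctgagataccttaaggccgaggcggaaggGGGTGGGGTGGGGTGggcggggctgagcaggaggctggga

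The window before Hba-a1 (chr11:32283422-32283671) was identical to that of Hba-a2 over all 247 aligned bases, with an offset of 3 bases in the annotated start. The Hbb-bs and Hbb-bt windows shared 175 of 244 aligned bases (71.7%), and Hba-a1 and Hbb-bs shared 120 of 235 (51.1%). All 4 globin windows held all 4 motifs. The ATATAA word began 28, 31, 30 and 29 bases before the annotated start of Hba-a1, Hba-a2, Hbb-bs and Hbb-bt, and the GATAAG word 182, 185, 209 and 204 bases before it. Of 32851 promoter windows of the same length, 6.55% held GATAAG, 52.0% CACCC, 33.8% CCAAT and 9.1% ATATAA, and 46 (0.14%) held all 4. The Alas2 window held CACCC only, in 3 copies on the opposite strand that adjoin one another. RefSeq sequence was matched for 5 of the 6 mouse genes.

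Globin mRNA was among the most abundant RNA of the E18.5 preparations and was reduced to a trace by P1. Levels are FPKM, fragments scaled by transcript length and by the number of mapped fragments, summed over the transcripts of a gene. Hbb-bs was the highest member at 10045 and 12491 FPKM in the E18.5 libraries, where it was at rank 5 and rank 4 of all genes. After birth the levels were 2.80 and 10.03 FPKM (P1), 1.71 and 2.33 (P3), and 3.90 and 4.24 (P7). For Hba-a1 the E18.5 levels were 8133 and 10097 FPKM. After birth they were 2.49 and 15.0 (P1), 1.44 and 3.64 (P3), and 2.73 and 3.39 (P7). The lowest E18.5 library was thus 544-fold above the highest later library for Hba-a1, and 1001-fold for Hbb-bs. In bulk RNA, fewer cells of a type and less RNA per cell cannot be told apart.

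The other copies of each pair had the same course. Hba-a2 held 7151 and 8659 FPKM in the E18.5 libraries, then 2.22 and 13.3 (P1), 1.22 and 3.50 (P3), and 2.47 and 3.12 (P7). Hbb-bt was the lowest of the 4 globins, with 3679 and 4101 FPKM in the E18.5 libraries, then 0.611 and 2.38 (P1), 0.277 and 0.634 (P3), and 1.92 and 1.05 (P7). No E18.5 library overlapped with any later library for these genes. By the ratio of mean FPKM, E18.5 stood above P1, P3 and P7 by 1045, 3590 and 2975 for Hba-a1 and by 1019, 3350 and 2832 for Hba-a2. The same ratios were 1756, 5574 and 2766 for Hbb-bs and 2601, 8535 and 2618 for Hbb-bt. On the log2(FPKM + 1) scale the P7 minus E18.5 difference was -11.13 for Hba-a1, -11.02 for Hba-a2, -11.11 for Hbb-bs and -10.63 for Hbb-bt.

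The heme enzyme and the membrane transporter followed from lower levels. Alas2 was at 33.5 and 42.0 FPKM at E18.5, a mean of 37.7 ± 6.03 (SD, n = 2). Later it held 0.0273 and 0.341 (P1), 0.0244 and 0.0238 (P3), and 0.0152 and 0.184 FPKM (P7), which amounts to between 1.03 and 13.5 estimated reads per later library. The lowest E18.5 library was 98.1-fold above the highest later one. Slc4a1 was at 2.32 and 3.57 FPKM at E18.5, at 0.0117 in P1 replicate 2, and listed at 0 in the other 5 later libraries. All 6 measured members passed the filter on low values, which asked for 1 FPKM or more in 2 or more libraries. Alas2 and Slc4a1 passed it through E18.5 alone.

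**Figure D1:**
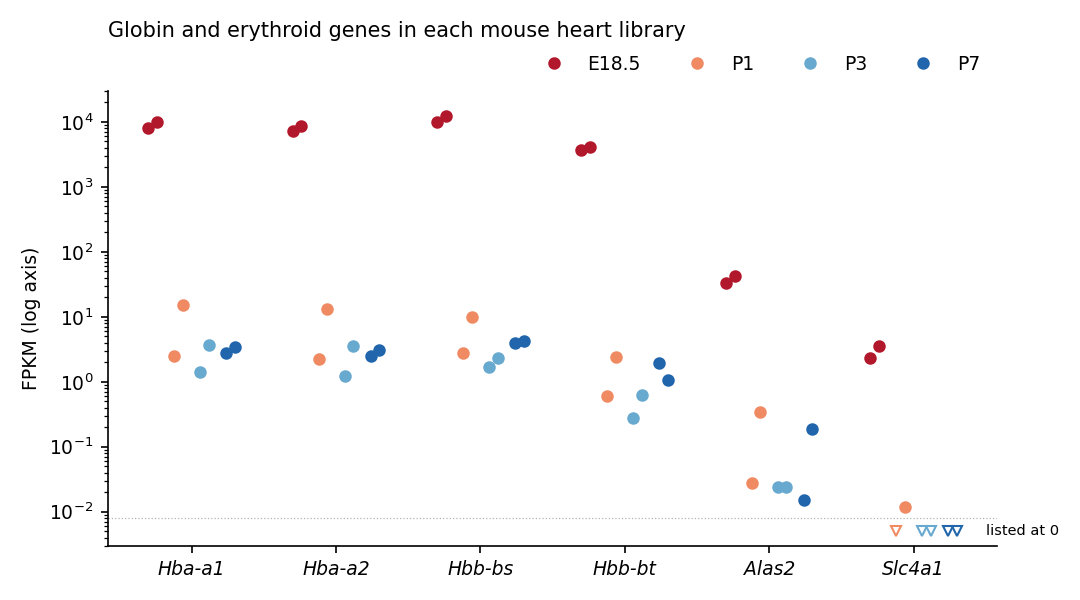
FPKM on a log axis for the 6 measured genes in the 8 mouse RNA-seq libraries, 1 point per library and 2 per time point; open triangles are libraries listed at 0. For each gene both E18.5 points lie above all later points, from 3679 to 12491 for the globins against at most 15.0 later.

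Together the 6 genes took 5.47% and 6.42% of all transcripts by TPM, a level scaled to the same total in each library, at E18.5, a mean of 5.94% ± 0.674 (SD, n = 2). After birth the share was 0.0054% ± 0.00515 (P1), 0.00164% ± 0.000885 (P3) and 0.00256% ± 0.000197 (P7). Counted by estimated reads, a measure that weights long transcripts more, the share at E18.5 was 1.86% and 2.27%, or 545234 and 772714 reads. The later libraries held between 110 and 978 such reads.

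The proportions among the chains were close between the E18.5 libraries. Alpha to beta, by summed FPKM, was 1.11 and 1.13 in the E18.5 libraries, 1.38 and 2.28 (P1), 1.34 and 2.41 (P3), and 0.893 and 1.23 (P7). The later ratios varied more within a time point and rested on at most 978 reads. Hbb-bt made up 26.8% and 24.7% of beta FPKM at E18.5 and 13.9% to 33.0% in the later libraries. Hba-a1 made up 53.2% and 53.8% of alpha FPKM at E18.5 and 51.0% to 54.0% later. The split within a pair is uncertain, because many reads match both copies. Of all 150-base windows, the length of 1 read, 48.4% of the main Hba-a1 transcript and 65.7% of that of Hba-a2 were identical in the other copy. For Hbb-bs and Hbb-bt these shares were 58.7% and 50.7%. More than 99% of Hba-a1, Hba-a2 and Hbb-bs FPKM at E18.5 came from the main transcript, from 99.0% to 99.98%, and for Alas2 82.4% and 83.1% came from the 1892-base transcript.

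The 2 P1 libraries stood apart from each other for these genes. P1 replicate 2 was above replicate 1 for every member, by 6.01-fold for Hba-a1, 5.98-fold for Hba-a2, 3.58-fold for Hbb-bs, 3.89-fold for Hbb-bt and 12.5-fold for Alas2. At E18.5 the ratio between the libraries was 1.11 to 1.54 across the 6 genes, with replicate 2 the higher in each. Among later libraries replicate 2 was also the higher for the alpha globins and Hbb-bs at P3 and P7.

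Whether the members went on to fall after P1 was tested between P3 and P1, libraries that the choice of the genes did not rest on. By limma on log2(FPKM + 1), 0 of the 6 members were called at an adjusted p under 0.05 with a difference above 1 in size. Alas2 and Slc4a1, at most 0.341 and 0.0117 FPKM at P1 and P3, could not differ by that much on this scale, so that the test bears on the 4 globins. Over all 13979 genes tested, 2 were called, or 0.0143%, and 1577 had an unadjusted p under 0.05. Hbb-bs was the only member with an unadjusted p under 0.05, and its P3 minus P1 difference was -1.11 (SE 0.413, limma adjusted p = 0.366). The difference was -1.15 (SE 0.611, limma adjusted p = 0.542) for Hba-a1, -1.10 (SE 0.610) for Hba-a2 and -0.69 (SE 0.334) for Hbb-bt. With limma-voom on estimated reads 0 members were called too. Without P1 replicate 1, Hbb-bs was called, with a difference of -1.88 and a limma adjusted p of 0.0292. The P7 minus P3 differences, which are descriptions, were 0.27 for Hba-a1, 0.26 for Hba-a2, 0.75 for Hbb-bs and 0.76 for Hbb-bt.

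The embryonic globins were found at E18.5 too, at a far lower level. Hbb-y, the embryonic beta-like epsilon chain, was at 9.30 and 4.25 FPKM at E18.5, at 0.0915 in P7 replicate 1 and listed at 0 in the other 5 later libraries. Hba-x, the embryonic alpha-like zeta chain, was at 3.98 and 4.41 FPKM at E18.5 and listed at 0 in all 6 later libraries. Both passed the filter through E18.5 alone, so that a lower level later was fixed by the filter, and their calls at P1, P3 and P7 are no support for a fall. The fitted differences were -2.88, -2.88 and -2.82 for Hbb-y and -2.38 at each time point for Hba-x. The other 3 measured genes of this list stayed under 1 FPKM in every library.

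Other genes of red cell formation were followed in 7 lists of 71 genes that leave out the members: embryonic globins, heme synthesis, iron uptake, red cell membrane, regulators, red cell enzymes and late maturation. Of these, 69 were measured, 48 passed the filter, 17 stayed under 1 FPKM in every library, and 6 of the 48 reached 1 FPKM at E18.5 only. Against E18.5, 9 were called lower and 1 higher (P1), 10 lower and 2 higher (P3), and 14 lower and 2 higher (P7). Over all genes tested, 6.06% were called lower and 10.1% higher at P1, 8.88% lower and 13.0% higher at P3, and 12.3% lower and 15.4% higher at P7. As shares of the 48, calls of lower genes stood above that background and calls of higher genes below it, but the 6 genes that passed through E18.5 alone had to be lower later. Among the 33 list genes with a mean of at least 5 FPKM over all libraries, 2, 2 and 4 were called lower at P1, P3 and P7, or 6.06%, 6.06% and 12.1%. Over all 8944 genes under that filter the shares were 4.61%, 7.76% and 11.3%, so that the list's shares were near the background there. The median difference of the 48 was -0.27, -0.20 and -0.37 at P1, P3 and P7, beside 0.15, 0.16 and 0.15 over all genes tested. The split of calls over all genes depended on the scaling. As reported it was 1411 higher and 847 lower (P1), 1814 and 1241 (P3), and 2155 and 1715 (P7). Under scaling by median-of-ratios size factors it was 1012 and 1201, 1367 and 1626, and 1727 and 2072, and the median over all genes was -0.01 at P1. With TPM it was 2636 and 911, 3139 and 1228, and 3477 and 1816.

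The heme synthesis genes that tissues share were not called beside Alas2. All 10 were tested and 0 were called in any of the 3 comparisons by limma, where differences were under 1 in size. At P1, P3 and P7, 1, 1 and 3 had an unadjusted p under 0.05, and 1, 1 and 2 an adjusted p under 0.05. The latter were Alad, higher at each time point (0.71, 0.57 and 0.53), and Alas1, lower at P7 (-0.48). Only the size asked for kept these from being called. Their median difference was -0.03, -0.09 and -0.27 at P1, P3 and P7, and their summed FPKM was 172 to 208 at E18.5 and 157 to 177 at P7. Of the iron uptake genes, 5 of 6 were tested and 1 was called. That was Slc11a2, which encodes a transporter of ferrous iron, at 11.1 and 10.5 FPKM at E18.5 and 22.5 and 24.0 at P7, a rise of 1.04 (SE 0.165, limma adjusted p = 0.00104). Without P7 replicate 2 the difference was 0.99, just under the size asked for, and with median-of-ratios size factors it was not called.

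The red cell membrane list held the most calls. Of 17 genes, 11 were tested, and 3, 4 and 7 were called lower at P1, P3 and P7, with medians of -0.64, -0.82 and -1.33. Tmod1, which encodes tropomodulin and caps actin filaments in red cells and in heart muscle, was at 104 and 124 FPKM at E18.5 and 7.30 and 3.14 at P7, a fall of 4.29 (SE 0.317, limma adjusted p = 3e-05). Ank1, ankyrin of the membrane skeleton, was at 9.42 and 20.5 FPKM at E18.5 and 2.99 and 1.59 at P7, and it was called lower at all 3 time points. Without E18.5 replicate 2, which held the higher level, its P1 and P3 differences of -1.31 and -1.41 were -0.79 and -0.88. Its calls were also lost without either P1 library (P1) and without P3 replicate 1 (P3). Sptb, beta spectrin, was at 6.23 and 6.59 FPKM at E18.5 and 1.13 and 0.305 at P7, and it fell by 1.05 at P3 and 2.15 at P7. Aqp1, a water channel of red cells and endothelium, fell by 1.24 at P1 and 1.45 at P7, and at P3 its difference was -0.74 (limma adjusted p = 0.1325). Without E18.5 replicate 1 both calls for Aqp1 were lost, with -0.93 at P1 and -1.15 at P7, as they were without P1 replicate 2 (-0.67) and without P7 replicate 2 (-1.21). Several of these genes are also used by heart muscle or vessels. The 16 cardiomyocyte markers were all called lower at P7, with a median of -4.26 and a summed FPKM that went from 32144 to 41640 at E18.5 down to 1221 to 2701 at P7. The part of heart muscle in the list's calls was not tested.

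Of 11 regulators, 6 were tested, and 1 was called lower at each time point. It was Bcl11a, a repressor of embryonic globin genes, with 3.33 and 2.95 FPKM in the E18.5 libraries, 0.636 and 1.502 (P1), 0.236 and 0.316 (P3) and 0.201 and 0.0837 (P7). Without E18.5 replicate 1 or P1 replicate 1 its P1 difference of -1.03 was -0.97 or -0.73, under the size asked for. Tal1, a factor of blood and vessel development, was higher at P3, with a difference of 1.10 (SE 0.363, limma adjusted p = 0.0363). It was not called without E18.5 replicate 2, where the difference was 0.72 (limma adjusted p = 0.211), nor without P3 replicate 1 (0.84) or P3 replicate 2 (1.35, limma adjusted p = 0.0506). Of 7 enzyme genes, 5 were tested. Car2, carbonic anhydrase, fell at each time point, from 8.19 and 11.2 FPKM at E18.5 to 0.898 and 0.829 at P7. Bpgm, which makes the 2,3-bisphosphoglycerate that lowers the oxygen affinity of hemoglobin, fell at P7 by 1.04 (SE 0.186, limma adjusted p = 0.00196), and by 0.83 without E18.5 replicate 2 and 0.92 without P7 replicate 2. Blvrb, a biliverdin reductase, rose at P3 and P7, from 18.2 and 20.5 FPKM at E18.5 to 74.3 and 60.9 at P7. Of 14 late maturation genes, 9 were tested and 2 were called lower at each time point. Among them Tent5c was at 4.08 and 4.09 FPKM at E18.5 and at most 1.12 later.

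**Figure D2:**
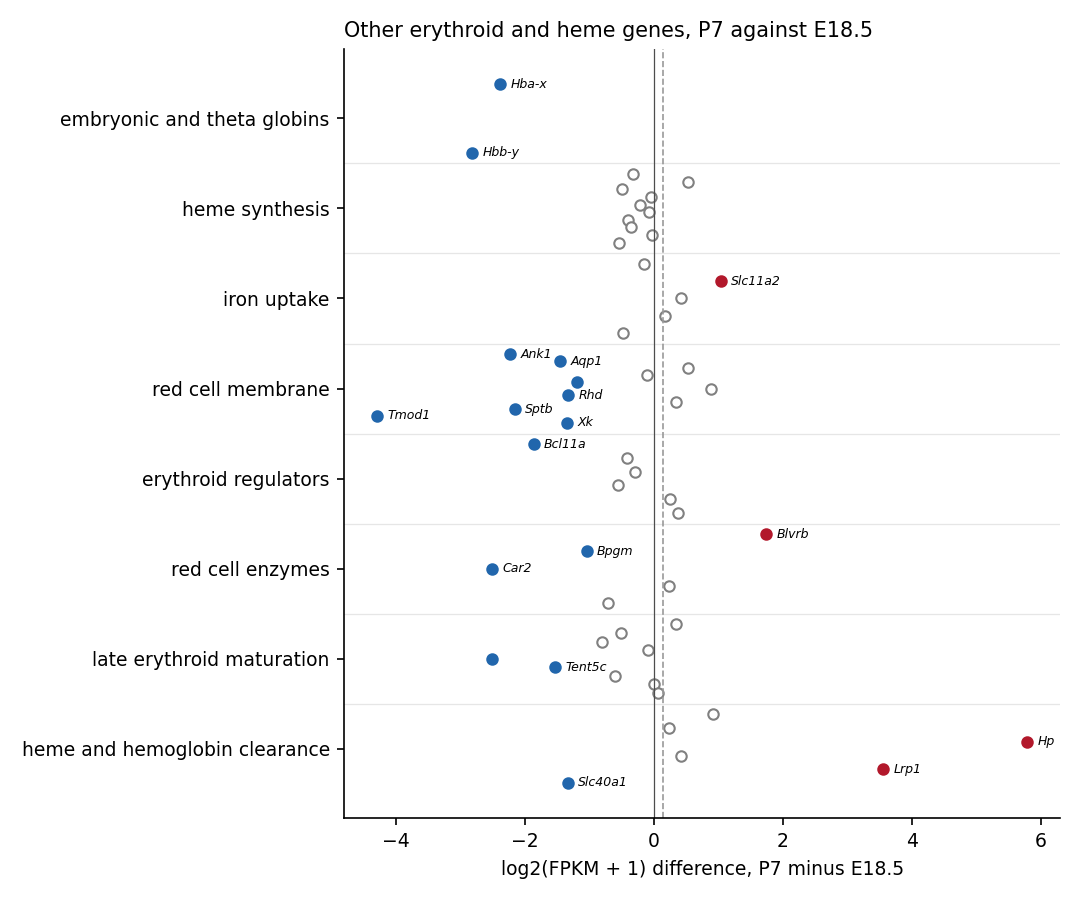
Difference in log2(FPKM + 1), P7 minus E18.5, for each tested gene of the erythroid and heme lists, 1 point per gene; filled points were called lower (blue) or higher (red), most of them named, and the dashed line is the median of all genes, 0.15. The red cell membrane list holds 7 blue points and the heme synthesis list none, while Hp lies farthest to the right at 5.79.

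Genes that clear free hemoglobin, heme and iron formed a separate list of 8, of which 6 were tested. Hp, haptoglobin, which binds free hemoglobin in plasma, held 1.02 and 2.03 FPKM in the E18.5 libraries, 40.5 and 63.1 (P1), 48.3 and 52.4 (P3), and 155 and 119 (P7). It rose by 4.38, 4.37 and 5.79 at P1, P3 and P7 (limma adjusted p = 4.05e-05, 2.3e-05 and 5.35e-06). Lrp1, a receptor that takes up hemopexin bound to heme and many other ligands, was at 8.41 and 3.04 FPKM at E18.5 and 69.5 and 74.2 at P7, and it rose at each time point. Slc40a1, the iron exporter, was at 19.9 and 7.24 FPKM at E18.5 and 4.26 and 4.16 at P7, a fall of 1.33 at P7 (SE 0.374, limma adjusted p = 0.0167). Without E18.5 replicate 1, which held the higher level, the difference was -0.66, and without P7 replicate 1 or replicate 2 limma's adjusted p was 0.0562 or 0.0611. Its P3 difference of -1.05 (limma adjusted p = 0.0465) was called as well, and was -0.38 without E18.5 replicate 1. Hmox1, heme oxygenase, was at 611 and 236 FPKM at E18.5 and 439 and 454 at P7, and was not called.

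Markers of other blood and heart cells are given beside the globins, with their counts at P7. Of 16 cardiomyocyte, 12 fibroblast and 12 endothelial markers, 16, 0 and 2 were called lower and 0, 11 and 2 higher. Of 4 platelet and megakaryocyte markers tested of 9 measured, 1 was lower and 2 were higher, and the summed FPKM went from 14.7 to 19.8 at E18.5 up to 68.0 to 77.2 at P7. Of 9 tested macrophage markers, 2 were lower, and their sum was 45.7 to 52.2 at E18.5 and 39.5 to 40.0 at P7. Of 9 tested neutrophil markers, 4 were lower, of which 1 passed the filter through E18.5 alone, which fixed its lower call. The list's sum was 23.1 to 36.9 at E18.5, 2.55 to 19.9 at P1, 10.8 to 68.8 at P3 and 6.32 to 8.68 at P7. Of 8 measured lymphocyte markers, 2 passed the filter, both through E18.5 alone, which fixed their lower calls, and the list's sum was 4.07 to 25.9 at E18.5 and at most 0.221 later. The E18.5 libraries differed in this last list, where the genes named next were chosen after their values were seen. Cd3e was at 0.0215 and 9.45 FPKM, Cd4 at 0.187 and 2.94, and Cd8a at 0.109 and 10.5, with replicate 2 the higher, while the globins differed by at most 1.24-fold between the same libraries. The part of these cells in the globin levels was not tested.

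The 10 other genes with the most similar course over the 8 libraries were named from 398 genes whose time-point means spanned at least 3 on the log2 scale. The measure was Pearson's r with the mean of the members' standardised log2(FPKM + 1), and it rests on 8 libraries in which the step from E18.5 to all later time points carries most of the spread. They were Tceal7 (0.997), Cabcoco1 (0.997), Fos (0.995), Fosb (0.993), Atf3 (0.993), Hspa1a (0.991), Adhfe1 (0.985), Efnb3 (0.981), Gadd45b (0.981) and Cma1 (0.980). Fos was at 160 and 182 FPKM at E18.5 and at 4.81 to 10.4 later, and Hspa1a at 221 and 483 FPKM at E18.5 and at 5.80 to 12.9 later. Fos, Fosb, Atf3, Gadd45b and Hspa1a are known as immediate early or stress genes that respond within minutes to hours. Their part in the fall of the globins was not tested. The members themselves had r of 0.992 to 0.999 with their mean. Each member is part of that mean and was chosen on the same fall, so that these values are no support for a shared course.

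Of the tested genes within 50 kb of the members, only the embryonic globins Hba-x and Hbb-y, which passed the filter through E18.5 alone, were called lower at any of the 3 time points. Nprl3, which lies 15804 bases from Hba-a1 and whose introns are known to hold the enhancers of the alpha cluster, was at 5.25 and 5.86 FPKM at E18.5 and at 8.25 to 10.8 later. Beside Alas2, Pfkfb1 was at 0.391 and 0.671 FPKM at E18.5 and 2.94 and 3.46 at P7, and was called higher at all 3 time points. Apex2, whose body overlaps that of Alas2, was at 2.42 and 1.43 FPKM at E18.5 and 5.01 and 5.14 at P7, and was called higher at P7. The library kit does not mark strand, so that reads from overlapping genes may be shared between them. Near Slc4a1, Slc25a39, Ubtf and Rundc3a were not called at any time point.

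The ATAC-seq peak lists were then searched for open chromatin at the members' starts. No peak lay within 2.5 kb of any annotated transcript start of Hba-a1, Hba-a2, Hbb-bs, Hbb-bt or Slc4a1 in any of the 8 libraries, E18.5 included. Alas2 had a peak in P3 replicate 1 only, at chrX:150554060-150554273 with a fold enrichment of 3.45, beside the start of a short internal transcript. Of all 13979 genes tested for expression, the share with such a peak was 67.1% and 62.4% in the E18.5 libraries, 69.2% and 43.0% after birth at P1, then 91.7% and 87.7% (P3) and 86.5% and 85.5% (P7). Of the 55 other genes with a mean of at least 1000 FPKM at E18.5, 36 (65.5%) and 32 (58.2%) had one in the E18.5 libraries. Of the 48 tested erythroid list genes, 33 and 30 had one at E18.5. The embryonic globins Hba-x and Hbb-y had none in any library.

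Sequence that is shared by both copies reached into these windows only in part. Within 2.5 kb of the main start, 21.1% of 150-base windows at Hba-a1 and Hba-a2 and 15.6% at Hbb-bs and Hbb-bt were identical in the other copy, where an aligner cannot place a read in 1 copy alone. The part of such reads in the missing peaks was not tested.

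**Figure D3:**
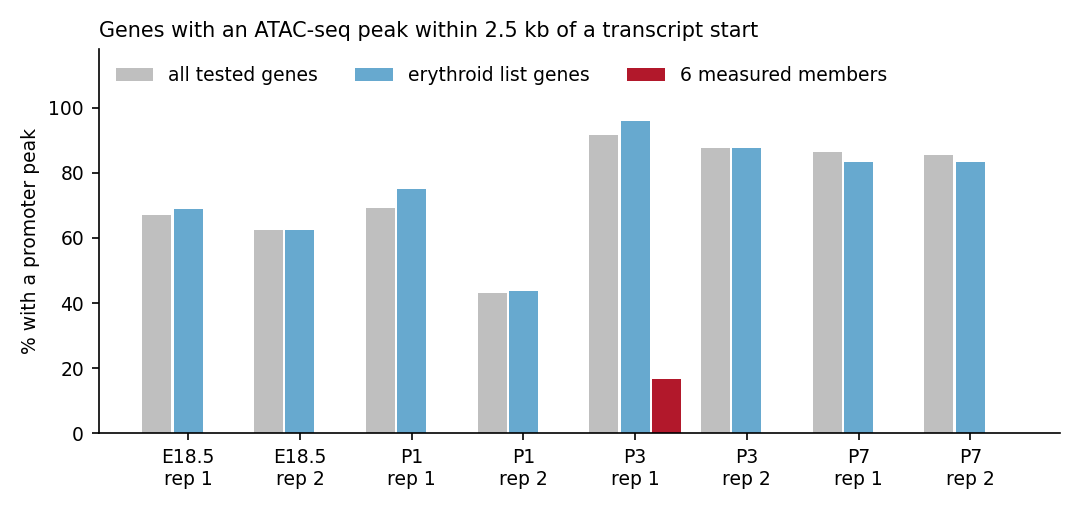
Percent of genes with an ATAC-seq peak within 2.5 kb of a transcript start in each of the 8 libraries, for all 13979 tested genes (gray), the 48 tested erythroid list genes (blue) and the 6 measured members (red). The red bar is at 0 in every library but P3 replicate 1, where it stands for Alas2 alone.

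Distances to the nearest peak differed between the loci. At E18.5 the peak nearest to Hba-a1 was 15705 and 15742 bases away, by the start of Nprl3, with fold enrichments of 5.67 and 7.72. Across the alpha cluster of 24474 bases, from Hba-x to the last theta gene, there were 0 peaks in both E18.5 and both P1 libraries, 2 and 0 at P3, and 1 and 0 at P7. With 50 kb on either side there were 1 and 1 at E18.5, 5 and 2 (P1), 12 and 7 (P3) and 5 and 5 (P7). On the side of Nprl3 the P3 libraries held peaks at chr11:32251033-32251749 and chr11:32251303-32251621, with fold enrichments of 5.45 and 5.10. None was listed there at E18.5. The lists were longest at P3, and the part of list length was not tested. Across the beta cluster of 40693 bases, from Hbb-bt to Hbb-y, there were 0 peaks in all 8 libraries. The nearest peak to Hbb-bs was 487403 and 93448 bases away at E18.5.

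**Figure D4:**
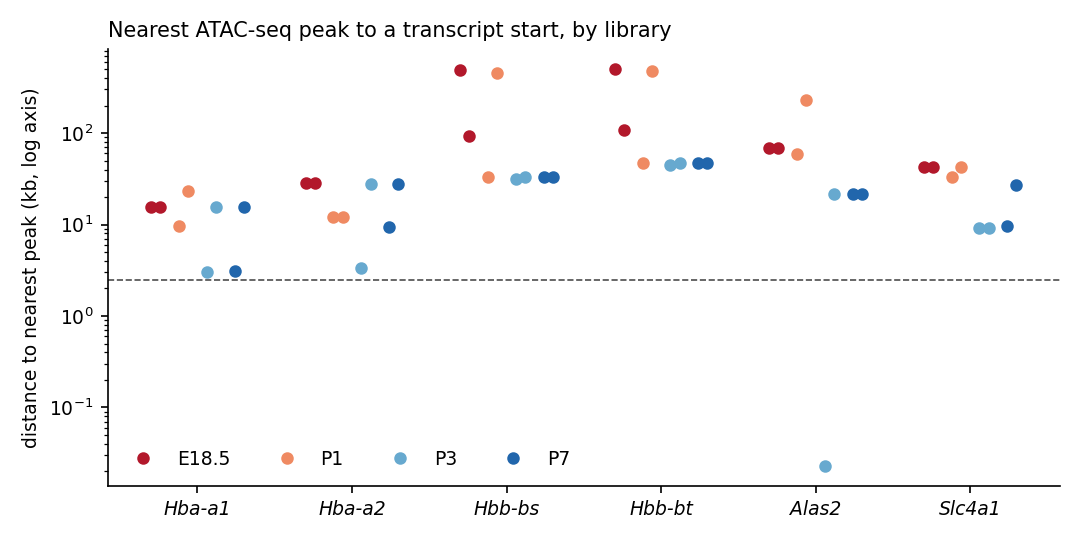
Distance in kb, on a log axis, from a transcript start of each member to the nearest ATAC-seq peak, 1 point per library and 2 per time point, with a dashed line at 2.5 kb. Only 1 point, Alas2 in P3 replicate 1, lies under the line.

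Beyond the beta cluster a single place was held by a peak in 5 libraries, at chr7:103860944-103861330. It lies 7728 bases before the start of Hbb-y, on the side where the locus control region of the beta globin genes is known to lie. The fold enrichment was 10.7 in P1 replicate 1, 16.2 and 15.0 in the P3 libraries, and 8.89 and 6.01 in the P7 libraries. The 3 libraries without it, both of E18.5 and P1 replicate 2, had the shortest lists, of 13149, 14910 and 19753 peaks against 29281 to 95257 in the others. So the peak was not listed at E18.5, the time point with the highest globin RNA, and was listed at P3 and P7, where globin RNA was a trace. The part of list length in this difference was not tested.

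In the rat cultures, 3 of the 6 measured members, Hba-a1, Hba-a2 and Hbb-bs, passed the filter of 1 FPKM in at least 3 libraries. Hba-a1 was at 15.3, 11.1 and 2.71 FPKM with DMSO and at 21.6, 25.4 and 33.1 with TSA. Hba-a2 was at 8.33, 6.86 and 1.301 FPKM with DMSO and at 10.1, 16.9 and 20.1 with TSA. The split between these rat genes is uncertain where their reads are shared. For both genes every TSA library lay above every DMSO library, and DMSO replicate 3 was far below the other DMSO libraries. Hbb-bs was at 1.71, 0 and 0.134 FPKM with DMSO and at 0.458, 2.11 and 2.51 with TSA, and the groups overlapped. Hbb, a rat beta globin that is not in the set, was at 6.04, 5.83 and 0.831 FPKM with DMSO and at 6.38, 10.2 and 10.2 with TSA.

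None of these members was called. The TSA minus DMSO difference in log2(FPKM + 1) was 1.60 for Hba-a1 (SE 0.523, limma adjusted p = 0.154), 1.54 for Hba-a2 (SE 0.539, limma adjusted p = 0.175) and 0.79 for Hbb-bs (SE 0.48, limma adjusted p = 0.428). Of 13625 genes tested, 290 were called (2.13%) and 2699 had an unadjusted p under 0.05, as did 2 of the 3 members, Hba-a1 and Hba-a2. The count over all genes was 339 (2.49%) with the replicate block. It depended on single libraries, at 65 without DMSO replicate 1, 92 without DMSO replicate 2, 458 without DMSO replicate 3, 61 without TSA replicate 1, 33 without TSA replicate 2 and 245 without TSA replicate 3. The exact permutation test, two-sided, gave p = 0.1 for Hba-a1 and Hba-a2 and p = 0.2 for Hbb-bs, where 0.1 is the smallest p that 3 libraries against 3 allow. Without DMSO replicate 3 the difference was 0.96 for Hba-a1 (limma adjusted p = 0.0566) and 0.91 for Hba-a2 (limma adjusted p = 0.127), each more than 1.5 times smaller.

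The other rat members were near the limit of detection. Alas2 was at most 0.137 FPKM, Slc4a1 at most 0.0636 and Ahsp at most 0.431, and each was listed at 0 in 2 of the 6 libraries. By FPKM, Slc4a1 was higher in every TSA library than in every DMSO library (exact permutation p = 0.1). TSA replicate 1 and DMSO replicate 1 held 2.0 estimated reads each, however. Their order by FPKM came only from their depths of 28.2 M and 33.4 M reads, so that the groups were not separated by reads. All 6 members together took 0.000845% to 0.00521% of TPM with DMSO and 0.00624% to 0.0103% with TSA, beside 0.00101% to 0.00904% in the mouse libraries after birth, which were processed apart from the rat. Alpha to beta, counting Hbb and Hbb-bs as beta, was 3.06 to 4.16 with DMSO and 3.43 to 4.64 with TSA.

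**Figure D5:**
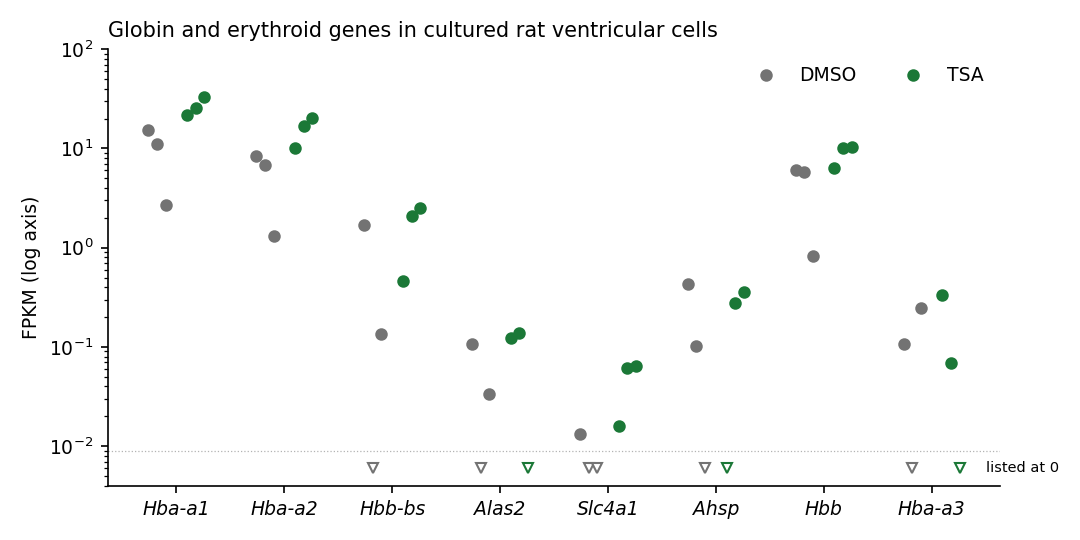
FPKM on a log axis for the 6 measured rat members and for Hbb and Hba-a3 in the 3 DMSO (gray) and 3 TSA (green) libraries, 1 point per library; open triangles are libraries listed at 0. For Hba-a1 the TSA points lie at 21.6 to 33.1 and the DMSO points at 2.71 to 15.3.

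Of the other erythroid genes, 40 of 59 measured in rat were tested, and 3 were called, all higher with TSA. Over all 13625 genes tested, 290 were called (2.13%), 247 of them higher. Epor, the erythropoietin receptor, was at 1.05, 0.914 and 0.419 FPKM with DMSO and 2.69, 4.08 and 3.597 with TSA, a rise of 1.32 (SE 0.207, limma adjusted p = 0.0238). Car2 was at 2.71, 2.92 and 1.77 FPKM with DMSO and 8.15, 8.34 and 6.02 with TSA, a rise of 1.299 (SE 0.191, limma adjusted p = 0.0194). Tspan33, a tetraspanin of red cell formation, was at 0.294, 0.176 and 0.261 FPKM with DMSO and 2.06, 2.30 and 3.06 with TSA. Its fitted difference was 1.47 (SE 0.170, limma adjusted p = 0.0119). Because Tspan33 passed the filter through the TSA libraries alone, a higher level with TSA was fixed by the filter. The call of Tspan33 is thus no support for a rise. Epor passed the filter through its TSA libraries and DMSO replicate 1 (1.05 FPKM), so that the filter favored a higher level with TSA there too. The median difference of the 40 was 0.14, beside 0.03 over all genes tested. Without DMSO replicate 1, DMSO replicate 2, TSA replicate 1 or TSA replicate 2 the count was 0, where limma's adjusted p for the 3 genes lay between 0.0504 and 0.12. The groups did not overlap for any of the 3 genes, which for Tspan33 the filter had fixed.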

How the data were processed

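The authors aligned paired reads of 150 bp with HISAT2 2.1.0 and ran StringTie, version 1.3.5 in the mouse and 1.3.4d in the rat file headers, on mm10 with GENCODE vM21 and on Rnor_6.0 with Ensembl 103. The deposited files give FPKM, TPM and coverage for each transcript, as the authors' StringTie run made them. The peak lists were made by the authors with MACS2 on mm10, 1 list per library, after bowtie2 alignment, removal of duplicates and removal of blacklisted regions. In these deposited lists, fold enrichment is a ratio at the summit, significance is given as −log10 p and −log10 q, and the score is a rounded multiple of the latter. The 6 HiChIP libraries were not analysed here.

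FPKM was summed over the transcripts of a gene. Depth, worked out from coverage and FPKM, was 29.3 to 37.5 M aligned reads in mouse and 28.2 to 38.5 M in rat, and estimated reads are coverage times length over 150. Genes that reached 1 FPKM in 2 or more mouse libraries, or 3 or more rat libraries, were tested on log2(FPKM + 1) with limma 3.58.1 in R 4.3.3 (lmFit, contrasts.fit, eBayes with trend, two-sided, Benjamini-Hochberg). The 4 mouse time points shared 1 model. Calls needed both a difference above 1 in size and an adjusted p under 0.05. A fold change on this scale understates that of low genes. Exact permutation tests used scipy 1.17.1. The test was checked on simulated data.

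The members and gene lists were chosen with earlier results of these data known. Named are all members, up to 4 called genes per list and comparison with the largest difference, the 10 most similar genes, and tested neighbours within 50 kb. Alad, Alas1, Hmox1, rat Hbb and Hba-a3 and the platelet and lymphocyte markers were named after their values were seen. List genes under 1 FPKM everywhere are only counted. A few called list genes are counted but not reported here by name. Peaks were assigned to a gene where any part lay within 2.5 kb of a transcript start. Replicate numbers were checked for pairing by the correlation of same-numbered libraries' deviations from their group means. It was 0.224, 0.194 and 0.346 in rat and -0.096 to 0.171 in mouse. Differently numbered libraries were not compared, so that these values cannot tell whether the numbers pair the libraries. No label states a pairing.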

Additional observations from a re-analysis of the deposited data

How the results depend on the processing

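The members were chosen on their fall from E18.5 in these libraries, so that the sign of their differences is no support for a fall. The differences of the 6 members at P1, P3 and P7 from E18.5 were negative in all 303 alternative values. For the low genes their size depended on the scale, from -4.84 to -9.00 for Alas2 and -1.72 to -8.75 for Slc4a1 at P1, where limma-voom on estimated reads gave the larger value of each. Of the alternative values of the called list genes, 734 kept their call, 57 did not, and none changed sign. Slc40a1 at P3 (-1.05) lost its call under 12 of these. The count of erythroid list genes lower than at E18.5, 9, 10 and 14 at P1, P3 and P7, was 2, 2 and 4 at a mean FPKM of at least 5, a filter that removes low genes. The count of higher genes at P1, 1 as reported, was 2 with a pseudocount of 0.1, 0 at a mean FPKM of at least 5, 5 with TPM, 2 with limma-voom, 2 with the replicate block, 2 with the 2 time points alone and 1 to 3 when each library was left out. At P3, 2 as reported, it was 1 with no filter, 1 at a mean FPKM of at least 5, 5 with TPM, 1 with median-of-ratios size factors, 1 with limma-voom and 1 to 2 with a library left out. At P7, 2 as reported, it was 1 with median-of-ratios size factors and 1 to 3 with a library left out. The causes were not tested. Members called between P3 and P1 numbered 0 to 1 with a library left out. In rat 0 members were called under any alternative, and the 3 list genes became 0 at a mean FPKM of at least 5 and 0 to 3 with a library left out. The share of TPM at E18.5, 5.94%, was 2.06% by estimated reads, which weight transcripts by length, and 5.47% to 6.42% with a library left out. The 1 pair of a member and a library with a promoter peak was 4 pairs at 5 kb, 0 with equal numbers of top peaks, 1 at 1 kb or by summit, and 0 to 1 with a library left out.

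Over all rat genes, 290 calls as reported, 79 were made at a mean FPKM of at least 5. With the replicate block, 0 members were called in rat and the limma adjusted p was 0.152 for Hba-a1, 0.177 for Hba-a2 and 0.432 for Hbb-bs. The block changed no call of a member in either species. In mouse the correlation of deviations was -0.096 to 0.171 and calls over all genes at P7 were 2160 higher and 1715 lower with the block. Leaving 1 of 2 libraries out assumes that the remaining one varies like the other groups.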
